A study of Mus musculus with 3 samples.

Results

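Actb, Gapdh, Rpl19 and B2m were the only mRNAs measured in a NanoString profile of miRNAs in Müller glia (MG), the main glia of the retina. They are the 4 rows of 626 whose identifier is a RefSeq mRNA accession, NM_007393.1 for Actb, NM_008084.1 for Gapdh, NM_009078.1 for Rpl19 and NM_009735.3 for B2m. The other rows are 602 miRNAs, 14 ERCC control rows and 6 rows named nmiR. The authors used the 4 mRNAs as the housekeeping reference to which each sample was scaled.

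There were 3 samples, each a single pool of tdTomato+ MG isolated by fluorescence activated cell sorting (FACS) from adult mouse retinas. All mice carried Rlbp1-CreER, a tamoxifen-inducible Cre under the promoter of a gene expressed in MG, and a tdTomato reporter that Cre switches on. All received tamoxifen at 75 mg/kg, for which the sample labels give 3 days and the methods 4 days at 2 to 3 months of age. The wild type sample was pooled from 40 undamaged retinas. The light damage (LD) sample was pooled from 44 retinas and was collected 7 days after 8 h of light at 10000 lux. Its mice had also been crossed to an albino strain that carries leucine at position 450 of the protein RPE65. The Dicer-cKO sample was pooled from 26 retinas of Rlbp1-CreER:tdTomato:Dicer f/f mice, 1 month after deletion of Dicer, which cuts precursors into mature miRNAs. The wild type and Dicer-cKO samples had been measured in an earlier study. Albino crossing with its RPE65 variant, time of measurement and light damage cannot be told apart in the LD sample. Each condition had 1 sample, so replicates were lacking and no test was possible. All intervals are exact 95% intervals that cover counting error only.

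Housekeeping mRNAs encode proteins that nearly every cell needs, and they serve as references on the premise that their abundance relative to each other is steady. Actb encodes β-actin, a main component of the actin cytoskeleton. Gapdh encodes a glycolytic enzyme, Rpl19 a protein of the large ribosomal subunit, and B2m the invariant light chain of MHC class I, which is inducible by interferons. In the retina, MG are known to rely strongly on glycolysis and to change their cytoskeleton when they become reactive. A scaling factor multiplies all 4 mRNAs of a sample alike, so the ratio of one to another within a sample does not depend on it.

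None of the 4 is a marker of MG, and the panel held no other mRNA, so the sorted cell type could not be checked on them, and no further genes of glycolysis, the ribosome, the cytoskeleton or antigen presentation were measured. The miRNAs that would mark MG, neurons, photoreceptors, immune cells, red blood cells and vessels are listed by identifier only and could not be named with the tables used here. In pooled sorted cells, fewer cells of a type and less RNA per cell cannot be told apart.

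Promoter sequences are shown for Rpl19 and Gapdh, the pair whose ratio differed most between samples, and for B2m as the interferon-inducible member. They come from RefSeq (GRCm38.p6), in which 3 of the 4 genes had a window, and end at the base before the annotated start. The stretches are chr11:98026610-98026709 on the plus strand for Rpl19, the first of 2 annotated starts, chr6:125165774-125165873 on the minus strand for Gapdh and chr2:122147527-122147686 on the plus strand for B2m. Capitals mark matches on either strand to TATAA (the TATA box), CCAAT (a binding site of NF-Y), AANNGAAA (the core of sites of interferon regulatory factors), CACGTG (an E-box), GGGCGG (the GC box) or CGGAAG (sites of ETS factors).
Rpl19: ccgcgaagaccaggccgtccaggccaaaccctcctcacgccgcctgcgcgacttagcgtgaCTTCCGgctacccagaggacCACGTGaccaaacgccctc
Gapdh: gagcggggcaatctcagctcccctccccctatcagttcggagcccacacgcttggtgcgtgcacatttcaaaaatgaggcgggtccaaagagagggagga
B2m: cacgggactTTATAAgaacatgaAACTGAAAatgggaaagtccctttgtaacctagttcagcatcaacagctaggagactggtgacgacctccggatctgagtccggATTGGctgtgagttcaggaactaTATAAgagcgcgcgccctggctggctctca
AANNGAAA was found 137 bases before the start of B2m, and in 23.9% of all windows of 300 bases around annotated starts. B2m also held TATAA (24.9% of windows) and CCAAT (37.4%), where 2 of the 3 TATAA matches, on opposite strands, overlap. Rpl19 held CACGTG (7.15%) and, on the minus strand, CGGAAG (16.9%). The window of its other start also held GGGCGG (35.7%) and AANNGAAA, downstream of the start. None of the 6 motifs matched in the Gapdh window of 300 bases. The motifs were chosen after the sequences had been seen, and AANNGAAA took the place of a longer and rarer form of the same motif that had been searched first. A match is not evidence of binding, and no measurement of promoter activity was made.

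Actb was the most abundant of the 4 in all samples, and on the authors' scale its level differed least between samples. Before scaling, and with the ERCC or nmiR rows as the scale, B2m differed least, as did Rpl19 with the same total miRNA count and Gapdh by the median of miRNA ratios, so that Actb differed least in 3 of 8 scalings. Actb had 8068 normalized counts in the wild type pool, 9542 in the LD pool and 8481 in the Dicer-cKO pool. The LD value was 1.18-fold the wild type value (95% interval 1.14 to 1.23) and the Dicer-cKO value 1.05-fold (0.999 to 1.11), whereas before scaling these folds were 0.671 and 0.275. The authors' scale sets the geometric mean of the 4 mRNAs to 1167 in every sample. A level on this scale therefore depends on the other 3 mRNAs.

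On the authors' scale Gapdh was lowest after LD, which held in 5 of 8 scalings, the authors' included, whereas before scaling and with the ERCC or nmiR rows it was lowest in Dicer-cKO MG. It had 799 normalized counts in the wild type pool (740 to 860), 379.6 in the LD pool (326 to 437) and 622 in Dicer-cKO MG (525 to 735). The intervals of the LD sample lay below those of the other samples. The LD value was 0.475-fold the wild type value (0.401 to 0.558), 1 of the 4 mRNAs past a 2-fold difference in that comparison, where 57.7% of the 104 miRNAs averaging at least 100 counts were past it in either direction. The authors' scale centres the folds of the 4 mRNAs on 1 and not those of the miRNAs, so nothing is read from these counts. Before scaling it was also 1 of 4 (Gapdh), and 73.1% of the miRNAs. The 104 miRNAs were taken by their mean over the samples on the authors' scale, and 70 had at least 100 counts in every sample. The others could enter through a sample in which they were high, which favours large folds. All shares and numbers of the 104 miRNAs carry this limit. In Dicer-cKO MG the level of Gapdh was 0.779-fold that of wild type (0.647 to 0.937), whereas it was above wild type in 3 of 8 scalings, those to the miRNAs, at up to 3.12-fold.

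On the authors' scale Rpl19 was highest after LD, which also held in 5 of 8 scalings, the authors' included. With the same total miRNA count it was highest in Dicer-cKO MG. It was highest in wild type MG with the ERCC rows and before scaling, although before scaling wild type and LD differed by less than counting error. Rpl19 had 742 normalized counts in the wild type pool (685 to 801), 1269 in the LD pool (1172 to 1374) and 701 in Dicer-cKO MG (598 to 821). The LD value was 1.71-fold the wild type value (1.53 to 1.92), and the Dicer-cKO value differed from wild type by less than counting error (0.945-fold, 0.792 to 1.13), with 3 of 8 scalings placing it above wild type. In wild type and Dicer-cKO MG the intervals of Rpl19 and Gapdh overlapped, whereas after LD they were far apart.

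B2m had 388.5 normalized counts in the wild type pool (348 to 432), 404 in the LD pool (349 to 463) and 502 in Dicer-cKO MG (416 to 605). The LD and wild type values differed by less than counting error (1.04-fold, 0.867 to 1.24). The Dicer-cKO value was 1.29-fold the wild type value (1.04 to 1.61), the highest fold of the 4 mRNAs in that comparison, whereas it was below wild type in 3 of 8 scalings and 0.338-fold before scaling. For Dicer-cKO over wild type 0 of the 4 mRNAs and 79.8% of the 104 miRNAs were past 2-fold on the authors' scale, and 4 of 4 and 85.6% before scaling. For LD over Dicer-cKO it was 0 of 4 and 53.8% on the authors' scale, and 2 of 4 and 79.8% before scaling. The count of mRNAs past 2-fold thus depended on the scale. The 3 comparisons share samples, so their values are not independent of each other.

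**Figure D1:**
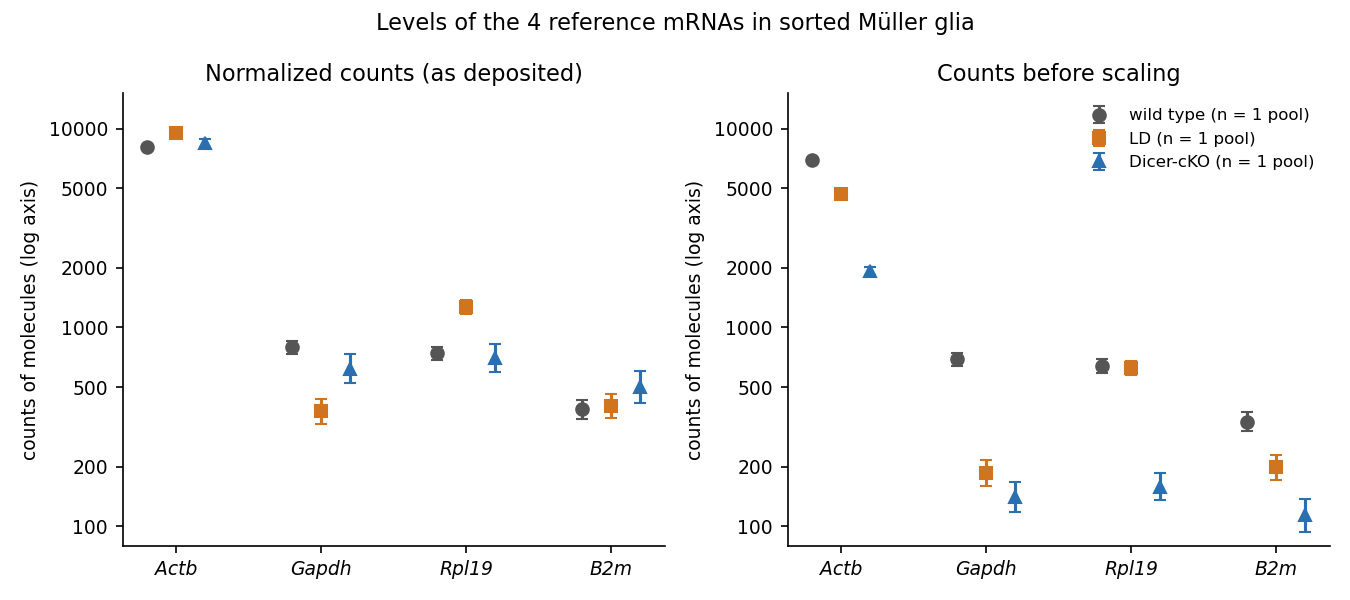
Normalized counts as deposited (left) and counts before the authors' scaling (right) of each mRNA on log axes, 1 pooled sample per condition, with exact 95% Poisson intervals as bars. Gapdh was lowest and Rpl19 highest after LD in normalized counts. Before scaling Rpl19 was highest in wild type MG, within counting error of LD. All 4 mRNAs were then lowest in Dicer-cKO MG, where B2m had 114 counts.

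The order of the 4 was not the same in the 3 samples. In normalized counts it was Actb, Gapdh, Rpl19 and B2m in wild type MG, Actb, Rpl19, B2m and Gapdh after LD, and Actb, Rpl19, Gapdh and B2m in Dicer-cKO MG. Neighbours whose counts did not differ beyond counting error were Gapdh and Rpl19 in wild type MG, B2m and Gapdh after LD, and both Rpl19 with Gapdh and Gapdh with B2m in Dicer-cKO MG. The assay counts tagged molecules and not fragments, so these counts are not divided by transcript length. The capture efficiency of each probe is unknown, and the order is that of the counts.

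Division by the recovered sample factors of 1.15 for wild type, 2.04 for LD and 4.42 for Dicer-cKO gave the counts before scaling. The sum of the 4 mRNAs was then 8656 counts in the wild type pool, 5697 in the LD pool and 2332 in the Dicer-cKO pool, although the study's methods give 200 ng of total RNA for each sample. The 6 highest ERCC rows, control molecules that are not scaled, summed to 46645, 48886 and 60119 counts. The mRNA counts were thus lowest in the sample with the highest control counts. Rpl19 had 642 counts in wild type MG and 623.5 after LD, a ratio of 0.971 (0.869 to 1.09), and was the only mRNA whose count before scaling did not differ between these samples beyond counting error. Of the 104 miRNAs, 95.2% differed beyond it. For Actb, with 6985 and 4689 counts, this ratio was 0.671 (0.647 to 0.697). B2m had 336 and 198.5 counts (0.590, 0.492 to 0.704). Gapdh had 691 and 186.5 counts (0.270, 0.228 to 0.317). In Dicer-cKO MG the counts were 1919 for Actb, 141 for Gapdh, 159 for Rpl19 and 114 for B2m, between 0.203-fold (Gapdh) and 0.338-fold (B2m) those of wild type.

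The lowest of these, B2m in Dicer-cKO MG, was 2.94-fold the highest of the 8 lowest ERCC rows of that sample (38.6 counts). The wild type counts were at least 14.4-fold the corresponding row (23.4 counts). After LD the lowest margin was that of Gapdh, 5.92-fold. A background had been subtracted from all counts. Its size is unknown, but if it was the mean of the 8 negative controls it was at least 12.6 counts in the wild type pool, 6.17 in the LD pool and 5.52 in the Dicer-cKO pool.

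The ratio of Rpl19 to Gapdh, ribosome over glycolysis, differed most between samples. It was 0.929 in the wild type pool (0.833 to 1.04), 3.34 in the LD pool (2.84 to 3.97) and 1.13 in Dicer-cKO MG (0.893 to 1.42). The LD sample lay apart, and the intervals of the other samples overlapped. The ratio after LD was 3.60-fold that in wild type MG (2.96 to 4.42) and 2.96-fold that in Dicer-cKO MG (2.23 to 3.97), whereas Dicer-cKO and wild type MG differed by less than counting error (1.21-fold, 0.937 to 1.57).

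Actb and B2m were likewise higher relative to Gapdh after LD. The ratio of Actb to Gapdh was 10.1 in the wild type pool, 25.1 in the LD pool and 13.6 in the Dicer-cKO pool. After LD it was 2.49-fold the wild type ratio (2.11 to 2.96). The ratio of B2m to Gapdh was 0.487 in the wild type pool, 1.06 in the LD pool and 0.808 in the Dicer-cKO pool. After LD it was 2.19-fold the wild type ratio (1.71 to 2.80). The 3 ratios with Gapdh were the 3 of 6 past 2-fold for LD over wild type. In the same comparison 64.8% of the 5356 ratios of 2 miRNAs were past 2-fold, so a difference of this size was common among these miRNAs. Their selection by mean favours large folds.

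**Figure D2:**
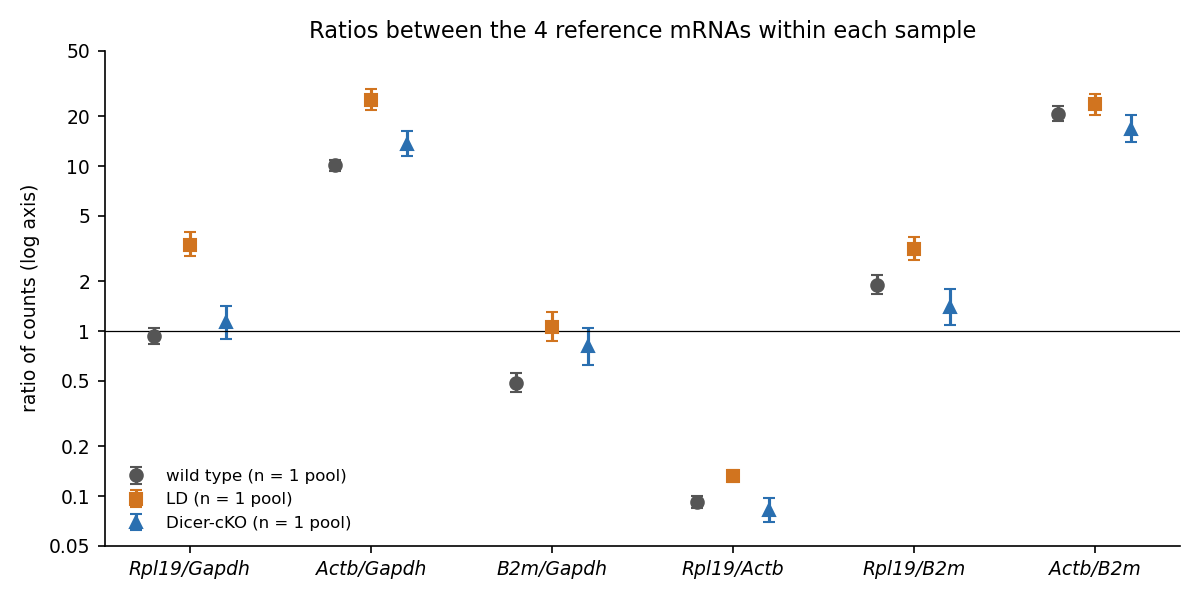
The 6 ratios between the mRNAs within each sample on a log axis, with exact 95% Clopper-Pearson intervals as bars. The LD sample is highest for all 3 ratios to Gapdh, and the 3 samples lie closest for Actb over B2m.

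The ratios of Rpl19 to the other mRNAs were also highest after LD. Rpl19 over Actb was 0.0920 in the wild type pool, 0.133 in the LD pool and 0.0827 in the Dicer-cKO pool. For LD over wild type it was 1.45-fold (1.29 to 1.63). Rpl19 over B2m was 1.91, 3.14 and 1.40, respectively, and 1.64-fold in the same comparison (1.33 to 2.04). Actb over B2m, the cytoskeletal mRNA against that of MHC class I, was 20.8 in the wild type pool, 23.6 in the LD pool and 16.9 in the Dicer-cKO pool. Its LD and wild type values differed by less than counting error (1.14-fold, 0.949 to 1.37), so 5 of the 6 ratios were past counting error for LD over wild type. By the same criterion 85.2% of the ratios of 2 miRNAs were past counting error, a share near that of the mRNAs. The criterion depends on how many counts each row has, and the miRNAs were selected by their mean.

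Between Dicer-cKO and wild type MG the ratios differed less. None of the 6 was past 2-fold, compared with 66.4% of the ratios of 2 miRNAs, and 3 were past counting error, compared with 77.3% of the miRNA ratios. B2m over Gapdh was 1.66-fold the wild type ratio (1.24 to 2.22) and Actb over Gapdh 1.35-fold (1.11 to 1.64). Rpl19 over B2m was 0.731-fold (0.550 to 0.971). Rpl19 over Actb (0.899-fold, 0.747 to 1.08) and Actb over B2m (0.813-fold, 0.649 to 1.02) did not differ beyond counting error. The difference in Actb over Gapdh depended on the subtracted background, since it was 1.09-fold with 50 counts added back to every mRNA. Counting error was largest in this sample, where it amounted to 9.38% of the B2m count compared with 5.45% in wild type MG.

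The LD and Dicer-cKO samples were compared directly as well. The ratio of Rpl19 to Gapdh (2.96-fold) and that of Rpl19 to B2m (2.25-fold, 1.67 to 3.04) were past 2-fold, 2 of 6 compared with 60.8% of the ratios of 2 miRNAs, and 5 of 6 were past counting error, compared with 71.9%. Actb over Gapdh was 1.84-fold (1.47 to 2.33), Rpl19 over Actb 1.61-fold (1.34 to 1.94) and Actb over B2m 1.40-fold (1.10 to 1.79). B2m over Gapdh was 1.32-fold (0.946 to 1.83), within counting error.

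**Figure D3:**
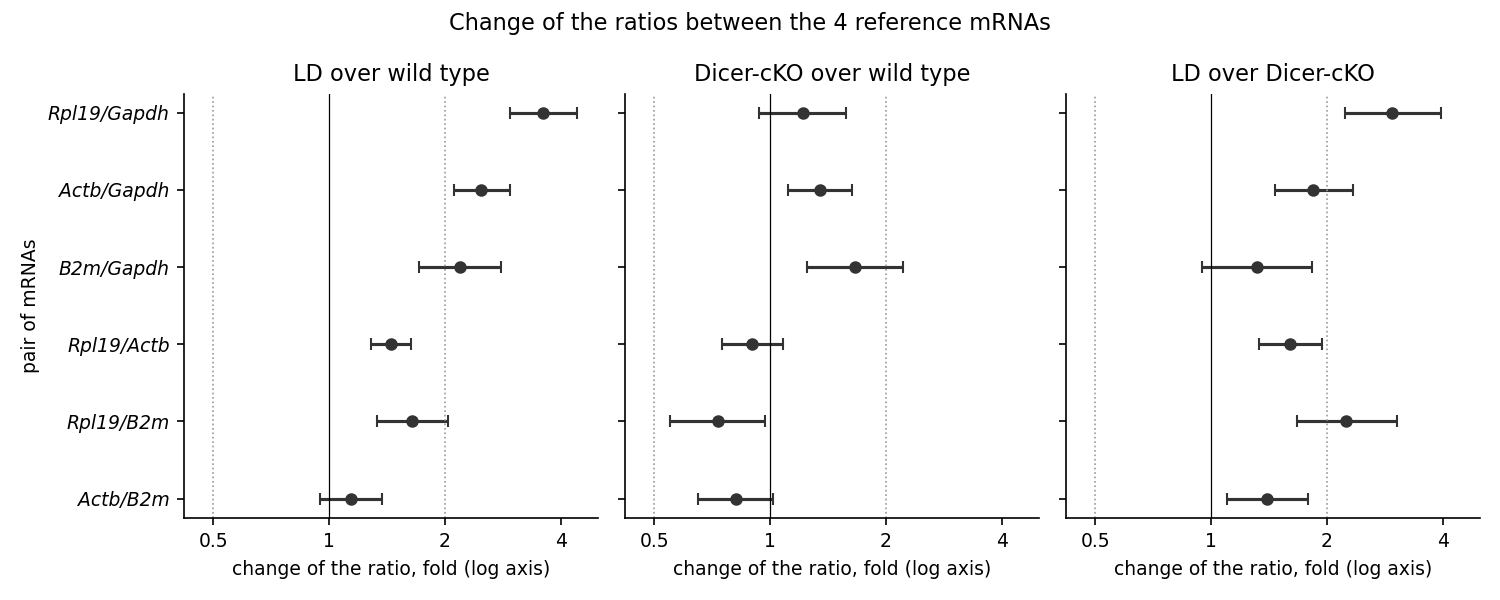
Change of each of the 6 ratios between samples as a fold on a log axis, with exact 95% conditional intervals (counting error only), a solid line at 1 and dotted lines at 2-fold in either direction. The 3 ratios to Gapdh are past 2-fold for LD over wild type, and none is for Dicer-cKO over wild type.

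The spread of the log2 ratio over the 3 samples summarized how steady each pair was. It was lowest for Actb over B2m (SD 0.24) and highest for Rpl19 over Gapdh (SD 0.996), with Actb over Gapdh at 0.67, Rpl19 over B2m at 0.59, B2m over Gapdh at 0.57 and Rpl19 over Actb at 0.36. The mean of a gene's 3 SDs, the geNorm measure of reference stability, was 0.42 for Actb, 0.47 for B2m, 0.65 for Rpl19 and 0.75 for Gapdh. Without Gapdh it was 0.30 for Actb, 0.42 for B2m and 0.47 for Rpl19. These SDs are over 3 different conditions and hold counting error as well.

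As a share of the 4 mRNAs, Actb took 80.7% in the wild type pool (79.9 to 81.5), 82.3% in the LD pool (81.3 to 83.3) and 82.3% in the Dicer-cKO pool (80.6 to 83.8). The 3 intervals overlapped, which does not show that the shares were equal. No interval was computed for a difference between shares. The share of Gapdh was 7.99%, 3.27% and 6.03% in the same order, and that of Rpl19 7.42%, 10.9% and 6.80%. B2m took 3.89% (3.49 to 4.31), 3.48% (3.02 to 3.98) and 4.87% (4.05 to 5.84), so that its share was highest in Dicer-cKO MG although the interval of the wild type share overlapped.

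A level relative to wild type depended on what the samples were scaled to. Over the authors' scaling and 7 others, Gapdh after LD was below wild type in all 8, between 0.238-fold with the 6 highest ERCC rows and 0.795-fold with the same total miRNA count. Rpl19 after LD lay between 0.857-fold and 2.86-fold and was above wild type in 6 of the 8. Actb (0.593 to 1.98-fold) and B2m (0.521 to 1.74-fold) were above wild type in 6 of 8 as well. Before scaling and with the ERCC rows, these 3 mRNAs were below wild type after LD. In Dicer-cKO MG no mRNA kept 1 direction. Gapdh ranged from 0.143-fold to 3.12-fold, Rpl19 from 0.174 to 3.79-fold, Actb from 0.194 to 4.21-fold and B2m from 0.238 to 5.18-fold. The lowest values came with the ERCC rows and the highest with the same total miRNA count. That scaling holds the miRNA sum equal, so its folds restate the lower miRNA sum per mRNA count in Dicer-cKO MG. For Gapdh and Rpl19 the values above wild type came only from the 3 scalings to the miRNAs. The order of the 4 folds, Gapdh lowest and Rpl19 highest after LD, and Gapdh lowest and B2m highest in Dicer-cKO MG, cannot be moved by a common factor. In Dicer-cKO MG neither end of this order was apart from its neighbour, since Gapdh and Rpl19, and B2m and Actb, did not differ beyond counting error.

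**Figure D4:**
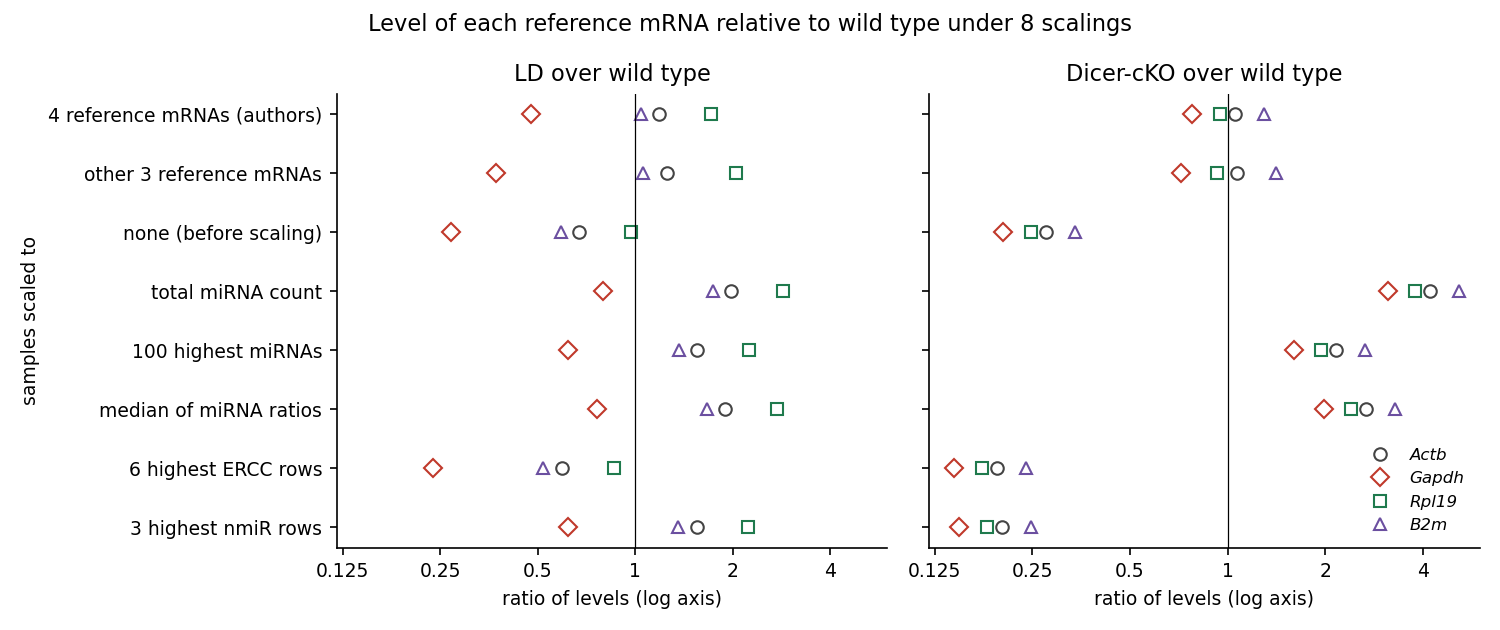
Level of each mRNA relative to wild type on a log axis, for LD (left) and Dicer-cKO (right), under 8 scalings of the samples (1 row of points each). Gapdh after LD lies below 1 in all 8 rows, from 0.238 to 0.795, while in Dicer-cKO MG all 4 mRNAs cross 1.

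The miRNAs of the panel were set against each mRNA. The summed normalized miRNA counts per count of Actb were 97.2 in the wild type pool, 49.1 in the LD pool and 23.1 in the Dicer-cKO pool. Per count of Gapdh they were 982, 1235 and 315, so that the miRNA sum was 1.26-fold that of wild type after LD when Gapdh was the divisor. With the other mRNAs as divisors it was lower after LD, at 0.505-fold for Actb, 0.349-fold for Rpl19 and 0.575-fold for B2m. After Dicer deletion the miRNA sum was lower with each divisor, between 0.193-fold (B2m) and 0.321-fold (Gapdh).

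Within a fixed list of miRNAs the position of an mRNA likewise does not move with a common factor. Which miRNAs are on the list does depend on the scale, here that of the authors. For LD over wild type, 39 of the 104 miRNAs of mean at least 100 had a lower ratio than Gapdh, 73 a lower one than B2m, 76 than Actb and 84 than Rpl19. The median log2 ratio of these miRNAs was -0.71 after LD on the authors' scale. For Dicer-cKO over wild type the 4 mRNAs lay together, with 77 miRNAs below Gapdh, 79 below Actb, 79 below Rpl19 and 82 below B2m, and the median log2 ratio was -1.36. For LD over Dicer-cKO the numbers were 17 for Gapdh, 26 for B2m, 33 for Actb and 57 for Rpl19. Of the 104 miRNAs, 2 were at the lowest value of the Dicer-cKO sample, where their ratio is only a bound.

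**Figure D5:**
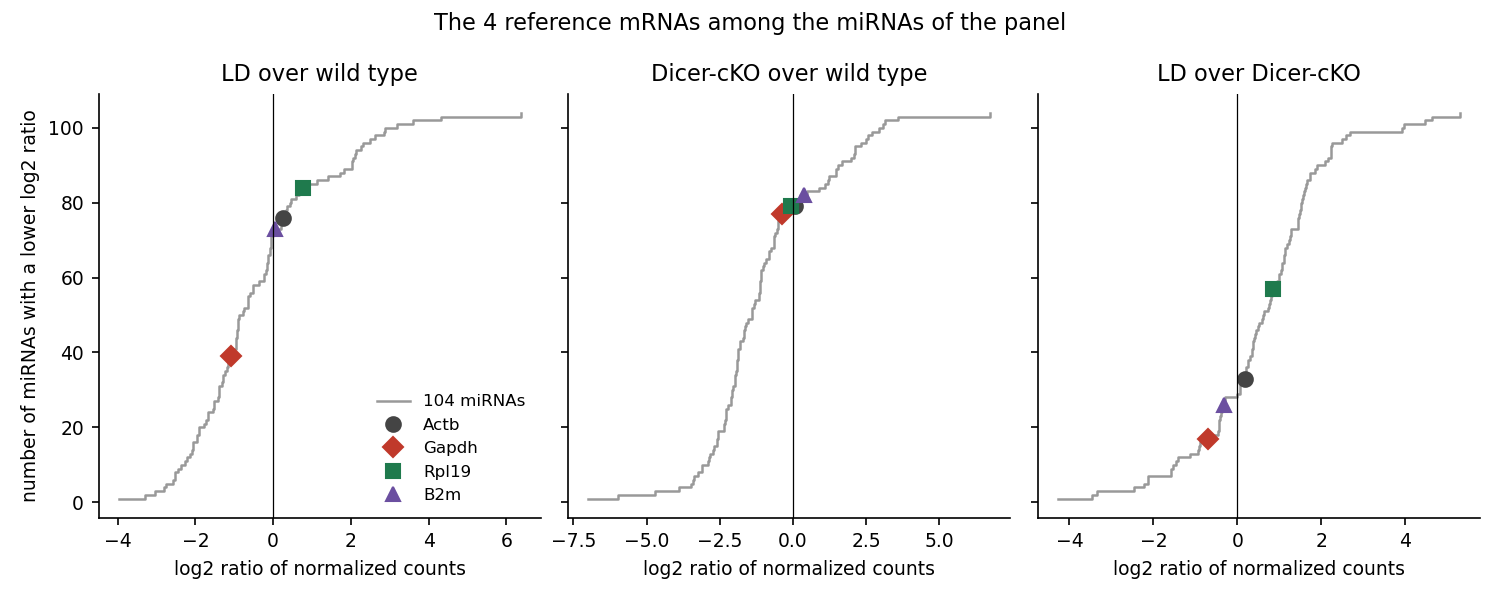
Number of the 104 miRNAs of mean at least 100 counts with a lower log2 ratio (vertical axis) against the log2 ratio of normalized counts (horizontal axis, grey line), with each mRNA as a symbol. The mRNAs are spread from 39 to 84 for LD over wild type and lie between 77 and 82 for Dicer-cKO over wild type.

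Because the mRNAs set the scale of every miRNA, each was left out of the reference in turn. Without Gapdh all miRNA ratios of LD over wild type fell by 21.96%, and without Rpl19 they were 19.6% higher, while leaving out Actb raised them by 5.76% and B2m by 1.31%. With all 4 mRNAs, 73 of the 104 miRNAs were lower after LD than in wild type MG, compared with 79 without Gapdh, 71 without B2m, 67 without Actb and 59 without Rpl19. With a single reference, an alternative added after seeing the data, it was 84 for Rpl19, 76 for Actb, 73 for B2m and 39 for Gapdh. For Dicer-cKO over wild type 79 were lower with all 4 mRNAs and also when any 1 was left out, and between 77 and 82 with a single reference. The numbers with a single reference restate the positions of the mRNAs among the miRNAs given above.

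The miRNAs of at least 100 counts in every sample whose pattern was nearest to each mRNA were found by the distance between their log2 ratios to wild type (LD and Dicer-cKO, 70 miRNAs). MIMAT0000536, with 2142 normalized counts in the wild type pool, 2624 in the LD pool and 2527 in the Dicer-cKO pool, was nearest to Actb (distance 0.17) and to B2m (0.27). MIMAT0009409, with 5024, 2622 and 3535 counts, was nearest to Gapdh (0.20). The nearest to Rpl19 was MIMAT0000545, with 193, 290 and 140 counts, at a distance of 0.43. The likeness rests on 3 samples, and the tables used here do not pair these identifiers with names.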

How the data were processed

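MG were sorted from retinas, and 200 ng of total RNA per sample was counted on the NanoString nCounter. In nSolver 4.0 the authors subtracted a background and normalized to the housekeeping mRNAs and, per the methods, to 8 negative and 6 positive controls. The deposited values are the resulting signal. The ERCC rows carry no factor in the table, and a positive-control factor within the single factor of each sample cannot be told apart from the housekeeping factor. In the table, the 4 reference rows and the nmiR rows above 2-fold the lowest nmiR value (2 decimals), 8, 7 and 8 rows in wild type, LD and Dicer-cKO, divided by the sample's factor gave whole counts plus the decimals shared by its ERCC rows (0.375 in wild type, 0.5 in LD, 0.625 in Dicer-cKO), within 0.00452 normalized counts. The common geometric mean of 1167 exceeds that of every sample before scaling (1011, 574 and 264). The recovery was tested on simulated data, where it returned the factor of most but not all samples.

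Accessions were matched to symbols without version numbers through a RefSeq table (GRCm38.p6), 4 of 4. Levels were given exact Poisson intervals, ratios and shares Clopper-Pearson intervals and changes of ratios exact conditional intervals of the odds ratio, all on counts after subtraction. PCR is not used, and depth limits the precision of the Dicer-cKO sample most (44258 miRNA counts before scaling, compared with 230232 after LD and 678722 in wild type). The named genes were all 4 mRNAs and, for each, the 2 nearest miRNAs of at least 100 counts in every sample. Since the tables used here do not name the miRNAs, 3 of their identifiers are printed. Alternatives comprised other scalings, other backgrounds and other reference mRNAs. The mRNAs, lists and alternatives were chosen with earlier results of these data known. The scripts ran in Python 3.11.15 with scipy 1.17.1, pandas 2.3.3, numpy 2.4.6 and matplotlib 3.10.9.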

Additional observations from a re-analysis of the deposited data

How the results depend on the processing

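No paired analysis was possible because the conditions had 1 sample each. A common scaling does not move the ratios, so their alternatives were the counts before scaling and other backgrounds. The counts before scaling can move a ratio only by rounding, so only the other backgrounds put the ratios to a test. The same 5 of 18 changes of ratios were past 2-fold under all 4 alternatives. Nearest to the threshold was B2m/Gapdh for LD over wild type, at 2.02 with 50 counts added back. The change of Rpl19/Gapdh for LD over wild type lay between 3.05 and 4.10. Directions were kept in 18 of 18, except with 50 counts added back (17 of 18), where Rpl19/Actb for Dicer-cKO over wild type was 1.08; there Actb/Gapdh for Dicer-cKO over wild type moved to 1.09. For each change below the cause was not tested.

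Levels are listed as Actb, Gapdh, Rpl19 and B2m. For LD over wild type they were 0.671, 0.270, 0.971 and 0.590 before scaling, 1.98, 0.795, 2.86 and 1.74 with the same total miRNA count, 1.55, 0.622, 2.24 and 1.36 with the geometric mean of 100 miRNAs, 1.89, 0.761, 2.74 and 1.66 by the median of ratios, 0.593, 0.238, 0.857 and 0.521 with the 6 highest ERCC rows, and 1.55, 0.622, 2.24 and 1.36 with the 3 highest nmiR rows. With the other 3 mRNAs as the reference, Actb was 1.25, Gapdh 0.371 and Rpl19 2.05, and B2m stayed within its interval. For Dicer-cKO over wild type they were 0.275, 0.203, 0.247 and 0.338 before scaling, 4.21, 3.12, 3.79 and 5.18 with the same total, 2.16, 1.60, 1.94 and 2.66 with 100 miRNAs, 2.68, 1.98, 2.41 and 3.29 by the median of ratios, 0.194, 0.143, 0.174 and 0.238 with the ERCC rows, and 0.201, 0.149, 0.181 and 0.247 with the nmiR rows. The other 3 mRNAs as the reference moved none of the 4 past its interval there.

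The number of miRNAs lower after LD (73 of 104) became 39 with Gapdh alone, which restates the position of Gapdh among the miRNAs. It was 28 of 37 at a mean of at least 1000, where fewer miRNAs are counted. The alternatives with a single reference mRNA were all added after seeing the data. The numbers of mRNAs and miRNAs past 2-fold before scaling were also added after seeing the data. For Dicer-cKO (79 of 104) the number of lower miRNAs was 32 of 37 at that mean.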
